A study of Mus musculus with 6 samples.

Results

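Polycomb repressive complex 1 (PRC1) was examined through 10 genes that encode its core, measured as messenger RNA in FLK1+ mesodermal cells from day 3.5 embryoid bodies (EBs). The genes were selected by symbol from the 14005 genes of the deposited table and all 10 were found once: the RING genes Ring1 and Rnf2, the PCGF genes Pcgf1, Pcgf2, Bmi1, Pcgf3, Pcgf5 and Pcgf6, and the paired adaptor genes Rybp and Yaf2. The comparison was between WT cells and Scl-/- cells, which lack a functional Scl (Tal1) gene, the transcription factor needed for blood specification. Both came from mouse embryonic stem (ES) cells differentiated in the same serum-based culture and isolated with an FLK1 antibody on magnetic columns, with 3 libraries a group, 1 from each of 3 independent differentiations. Each genotype was represented by a single ES cell line according to the methods, so genotype and line cannot be told apart. The strain field read C57Bl/6 X Sv129 for 3 libraries and ran on to Sv130, Sv131 and Sv132 for the others.

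PRC1 is an E3 ubiquitin ligase that places ubiquitin on histone H2A, a mark of transcriptional repression. RING1A and RING1B, the products of Ring1 and Rnf2, are its catalytic subunits, and each complex pairs one of them with one PCGF protein. Canonical PRC1 is built on PCGF2 (MEL18) or BMI1 (PCGF4) and holds CBX proteins, which bind H3K27me3, and PHC proteins, which polymerise. Variant (non-canonical) PRC1 holds RYBP or YAF2 in place of a CBX protein and can be built on any PCGF protein, among which PCGF1, PCGF3, PCGF5 and PCGF6 are found only in variant complexes.

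Promoter sequences are shown for 3 PCGF genes on which the results below turn, Bmi1 and Pcgf5, which were lower in Scl-/- cells, and Pcgf2, which was higher. RefSeq promoters on GRCm38.p6 were matched for 7 of the 10 genes, while Pcgf1, Rybp and Yaf2 had no entry in the promoter table used here. Each sequence is the 250 bases before the RefSeq gene start, 5′ to 3′ on the gene's strand, with capitals at CANNTG (E-box) and at GATAA on either strand.
Bmi1, chr2:18676768-18677017, plus strand: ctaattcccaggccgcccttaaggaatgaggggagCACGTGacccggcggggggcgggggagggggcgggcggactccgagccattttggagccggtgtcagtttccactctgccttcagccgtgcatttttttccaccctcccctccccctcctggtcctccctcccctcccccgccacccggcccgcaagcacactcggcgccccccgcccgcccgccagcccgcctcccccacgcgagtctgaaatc
Pcgf5, chr19:36348079-36348328, plus strand: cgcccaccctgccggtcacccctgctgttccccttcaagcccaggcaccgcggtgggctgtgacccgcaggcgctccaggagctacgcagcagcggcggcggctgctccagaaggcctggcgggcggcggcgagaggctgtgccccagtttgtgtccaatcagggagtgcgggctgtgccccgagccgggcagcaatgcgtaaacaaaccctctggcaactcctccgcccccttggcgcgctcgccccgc
Pcgf2, chr11:97699649-97699898, minus strand: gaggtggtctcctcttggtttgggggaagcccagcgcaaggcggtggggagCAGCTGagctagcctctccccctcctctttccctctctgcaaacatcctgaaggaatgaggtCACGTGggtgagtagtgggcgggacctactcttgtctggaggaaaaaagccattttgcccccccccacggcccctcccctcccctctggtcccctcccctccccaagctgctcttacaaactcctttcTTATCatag
The Bmi1 window held 1 E-box, the Pcgf2 window held 2 E-boxes and 1 GATAA, and the Pcgf5 window held none of these letters. On both strands, CANNTG was present in 5 of the 7 members' windows against 66.0% of 27025 promoters, GATAA in 1 of 7 against 23.0%, and AGGAA (the core of an ETS site, which may overlap GATAA) in 4 of 7 against 60.2%. The members' windows had a median GC content of 70.4%, against 52.0% over all promoters, and a median of 20 CpG dinucleotides against 6. Each of the 3 printed windows occurred once on its own chromosome in mm9, the build of the expression data. The other chromosomes were not searched for it. The Pcgf5 window lay 30739 bases before the start of the gene in the mm9 annotation, which therefore lacks this promoter, whereas the Bmi1 window ended at the base before the annotated start and the Pcgf2 window lay inside the annotated gene without exon bases.

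The 6 libraries held 38623641 to 47621120 reads on the listed genes, as worked out from the step of the CPM values. The members were covered by 218 reads (Pcgf1, lowest library) to 9288 reads (Rybp, highest library), so that counting error was at most 6.77% for Pcgf1 and 1.24% for Rybp. The targeted gene Tal1 had 303, 182 and 306 CPM in WT and 9.35, 5.68 and 5.87 CPM in Scl-/- libraries. The FLK1 gene itself, Kdr, had 832 to 868 CPM in WT and 724 to 810 CPM in Scl-/- libraries, without overlap. Kdr was lower in all 3 same-numbered pairs but was not called with the replicate number as a block (limma adjusted p = 0.125). It is the gene of the early mesoderm list below that was not called. All 11 blood and endothelial markers were in the table, with a summed level of 882 to 1421 CPM in WT and 387 to 544 CPM in Scl-/- cells. With the replicate number as a block, which called 24.2% of all genes, 10 of them were lower and 1 higher. Of 8 pluripotency markers 7 were listed, with sums of 136 to 211 CPM in WT and 126 to 289 CPM in Scl-/- cells, of which 2 were lower and 3 higher with the block. Early mesoderm markers (5 of 5 listed) summed to 1302 to 1648 CPM in WT and 1480 to 2192 CPM in Scl-/- cells with 4 higher, and cardiac markers (8 of 10 listed) to 837 to 905 and 875 to 1026 CPM with 4 higher. Paraxial mesoderm markers (5 of 6 listed) summed to 15.0 to 30.1 and 17.9 to 42.3 CPM with 2 higher. Endoderm markers (2 of 5, Cer1 and Sox17) summed to 8.34 to 22.4 and 3.12 to 8.44 CPM with 1 lower. The paper places Sox17 with the endothelial genes activated by SCL, so this sum is not particular to endoderm. The 1 listed neural marker had 12.7 to 15.4 and 13.9 to 15.5 CPM and was not called. The part of these markers in the changes of PRC1 genes was not tested. In such bulk samples fewer cells of a type cannot be told from less RNA per cell.

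Whether the PRC1 core differed between genotypes was asked with limma on log2(CPM + 0.5) across 13991 genes, first with genotype alone and then with the replicate number as a block, since same-numbered libraries deviated together from their group means. None of the 10 members was called without the block at an adjusted p under 0.05, and 2.38% of all genes were called in this fit. An unadjusted p under 0.05 was seen for 5 members, namely Rybp, Rnf2, Pcgf5, Bmi1 and Pcgf2, against 2474 of all 13991 genes. With the block these same 5 members were called, 4 lower (Pcgf5, Bmi1, Rybp and Rnf2) and 1 higher (Pcgf2) in Scl-/- cells. In that fit 24.2% of all genes were called, 12.2% lower and 12.0% higher. The groups did not overlap for 5 members, Rnf2, Rybp, Bmi1, Pcgf2 and Pcgf3, against 21.6% of all genes. A difference of one sign in all 3 same-numbered pairs was seen for 8 members, including Ring1, which was almost equal in the first pair, against 56.2% of all genes. The median log2 difference of the members was -0.086, against 0.0090 over all genes.

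**Figure D1:**
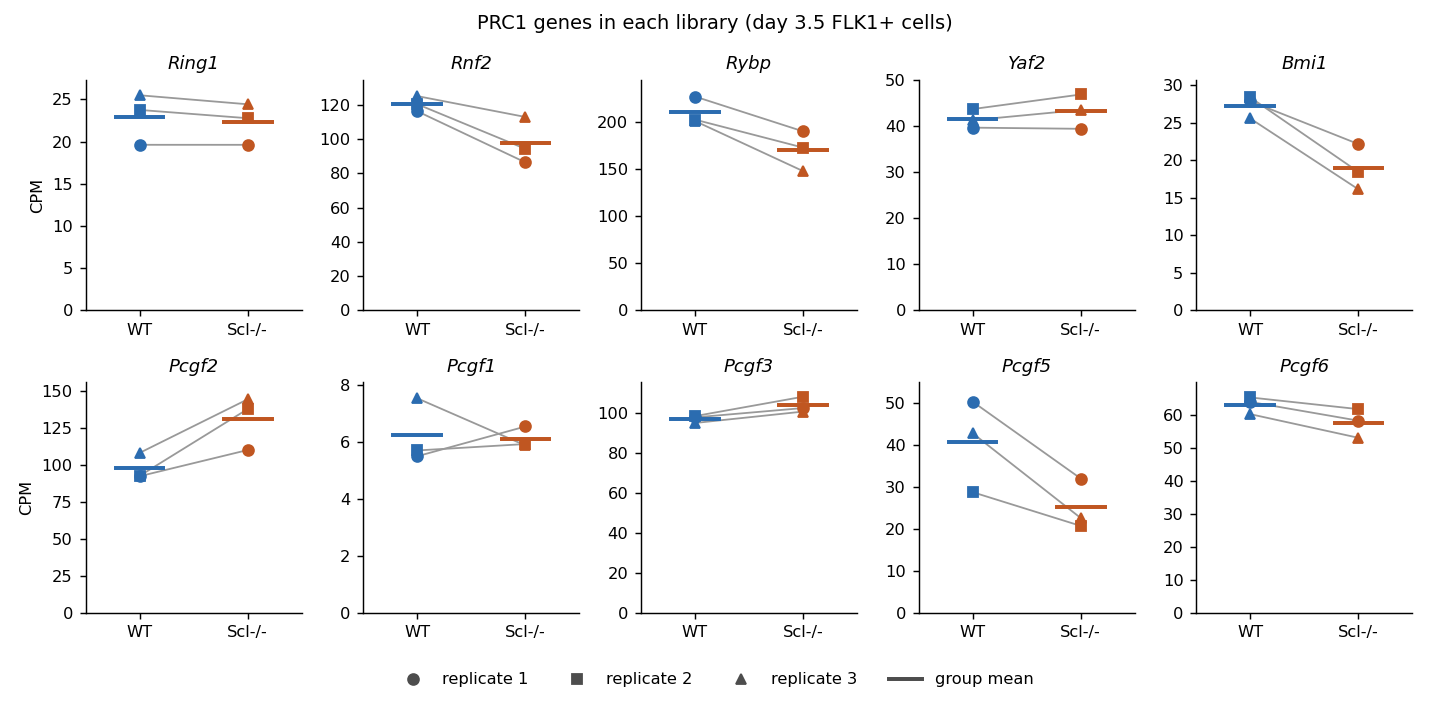
CPM of the 10 PRC1 genes in each library (vertical axes, starting at 0), with WT in blue and Scl-/- in orange. Grey lines join libraries with the same replicate number and thick bars are group means. All 3 lines fall for Rnf2, Rybp, Bmi1, Pcgf5, Pcgf6 and Ring1 (almost level in the first pair) and rise for Pcgf2 and Pcgf3.

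Of the catalytic genes, Rnf2 was called with the block and Ring1 was not. Rnf2 (ENSMUSG00000026484) lies on chromosome 1 from 153316536 to 153347953 of mm9. In replicate order, Rnf2 measured 116, 121 and 125 CPM in WT and 86.5, 94.4 and 113 CPM in Scl-/- cells. The WT libraries were all above the Scl-/- libraries, and the third Scl-/- library came closest. Its level in Scl-/- cells was 19.2% lower, a log2 difference of -0.31 ± 0.12 (SE, limma, adjusted p = 0.228), and it fell in the paired fit (SE 0.072, adjusted p = 0.0181). This call was lost when the median shift of each chromosome was removed with the block kept (log2 difference -0.023, limma adjusted p = 0.806).
Ring1 (ENSMUSG00000024325), on chromosome 17 from 34157737 to 34161625, had 19.6, 23.8 and 25.5 CPM in WT and 19.6, 22.8 and 24.4 CPM in Scl-/- cells. The groups overlapped almost fully. Ring1 had a log2 difference of -0.040 and did not pass in either fit (adjusted p = 0.951 and 0.776 by limma without and with the block), and the paired 95% interval of the difference ran from -0.23 to 0.15.

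Of the adaptor genes, Rybp was called lower in Scl-/- than in WT cells with the block, and Yaf2 was not called. RYBP binds RING1B, holds it at chromatin and raises its activity. Rybp (ENSMUSG00000072872), on chromosome 6 from 100178560 to 100237435, had 227, 203 and 201 CPM in WT replicates and 190.4, 173 and 148 CPM in Scl-/- replicates. The groups were separate, with the lowest WT library above the highest Scl-/- library, and every pair was lower in Scl-/- cells. Rybp fell by 19.3% in the paired fit (log2 difference -0.31 ± 0.065 SE, limma adjusted p = 0.0123), which did not pass without the block (SE 0.12, adjusted p = 0.227).
YAF2, the paralogue of RYBP, takes the same place in variant complexes. Yaf2 (ENSMUSG00000022634), on chromosome 15 from 93114709 to 93167366, had 39.7, 43.7 and 41.3 CPM in WT and 39.4, 46.9 and 43.5 CPM in Scl-/- cells. These ranges overlapped, and the pairs did not share a sign. The log2 difference of 0.055 did not pass (limma adjusted p = 0.888, or 0.631 with the block), with a paired 95% interval from -0.11 to 0.22.

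Of the PCGF genes of canonical PRC1, Bmi1 was called lower and Pcgf2 higher with the block, and the call of Pcgf2 was lost when chromosome medians were removed. Bmi1 (ENSMUSG00000026739), on chromosome 2 from 18598645 to 18608256, had 27.8, 28.4 and 25.5 CPM in WT and 22.1, 18.4 and 16.1 CPM in Scl-/- cells. The WT libraries lay close together and above all Scl-/- libraries. Bmi1 fell by 30.6% in the paired fit (log2 difference -0.53 ± 0.098 SE, limma adjusted p = 0.00742, against 0.119 and an SE of 0.14 without the block).
Pcgf2 (ENSMUSG00000018537), on chromosome 11 from 97550137 to 97561811, had 92.2, 92.5 and 108 CPM in WT and 109.9, 138 and 144 CPM in Scl-/- cells. Its groups were separate, and the third WT and the first Scl-/- library lay close to each other. Pcgf2 rose by 33.2% in the paired fit (log2 difference 0.41 ± 0.074 SE, limma adjusted p = 0.00654, against 0.164 and an SE of 0.13 without the block). With chromosome medians removed and the block kept it had a log2 difference of 0.11 (limma adjusted p = 0.234).

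Among the PCGF genes of variant PRC1, Pcgf5 was the only one called. PCGF5 and PCGF3 form variant complexes with AUTS2 or FBRS proteins and casein kinase 2. Pcgf5 (ENSMUSG00000024805), on chromosome 19 from 36453557 to 36530682, had 50.2, 28.7 and 42.7 CPM in WT and 31.9, 20.7 and 22.5 CPM in Scl-/- cells. It varied most of all members between differentiations, with a coefficient of variation of 26.9% in WT and 24.1% in Scl-/- cells, and the second WT library was below the first Scl-/- library. Within each pair the Scl-/- library was lower, by log2 differences of -0.65, -0.46 and -0.91. Pcgf5 thus fell by 37.2% in the paired fit (log2 difference -0.67 ± 0.0996 SE, limma adjusted p = 0.00299), and was not called without the block (SE 0.24, adjusted p = 0.21).
Pcgf3 (ENSMUSG00000033623), on chromosome 5 from 108890251 to 108935995, had 97.8, 98.4 and 94.99 CPM in WT and 102, 108 and 101 CPM in Scl-/- cells. It was the steadiest member and was slightly higher in all Scl-/- libraries, without overlap. The log2 difference of 0.095 did not pass (limma adjusted p = 0.653, or 0.294 with the block), and its paired 95% interval was -0.043 to 0.23.
PCGF6 joins MGA, MAX and L3MBTL2 in a complex that is prominent in ES cells. Pcgf6 (ENSMUSG00000025050), on chromosome 19 from 47108109 to 47125380, had 64.0, 65.4 and 60.3 CPM in WT and 58.3, 61.8 and 53.1 CPM in Scl-/- cells. Its ranges overlapped at the third WT library, and every pair was lower in Scl-/- cells. The log2 difference of -0.13 did not pass (limma adjusted p = 0.59, or 0.193 with the block), with a paired 95% interval from -0.28 to 0.021.
PCGF1 works with KDM2B and BCOR at unmethylated CpG islands. Pcgf1 (ENSMUSG00000069678), on chromosome 6 from 83028380 to 83030841, was the lowest in CPM, with 5.49, 5.70 and 7.53 CPM in WT and 6.54, 5.92 and 5.87 CPM in Scl-/- cells. The groups overlapped and the pairs differed in sign. Its log2 difference of -0.017 did not pass (limma adjusted p = 0.986, or 0.951 with the block), and the paired 95% interval, -0.35 to 0.32, was the widest of the members.

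The paired calls of the members depended on which differentiations were used. Without replicate 1 the same 5 members were called with the block, against 26.0% of all genes. Without replicate 3 Pcgf2, Pcgf5 and Rnf2 were called, against 11.2% of all genes, and without replicate 2 only Pcgf5, against 8.57%. The number of members called thus went down together with the share of all genes called. The log2 difference kept its sign for all 5 in each of these fits. A minimum absolute log2 difference of 0.48 left Pcgf5 and Bmi1 among the paired calls, against 12.6% of all genes.

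The chromosome on which a member lies was measured beside its change. The 789 tested genes of chromosome 1, where Rnf2 lies, had a median log2 difference of -0.29, and the 1211 of chromosome 11, where Pcgf2 lies, had a median of 0.31. On the 6 other chromosomes that carry members the median was between -0.0054 and 0.0099. After the median deviation of each chromosome was taken out of each library, with the block kept, neither Rnf2 nor Pcgf2 was called, as given above. Pcgf5, Bmi1 and Rybp were called as before, with log2 differences of -0.67, -0.52 and -0.32 (limma adjusted p = 0.00347, 0.00871 and 0.0121), in a fit that called 18.9% of all genes. The subtraction moves all genes of a chromosome by the same amount, so the smaller values of Rnf2 and Pcgf2 follow from it. Whether the shift of the chromosome has a part in the changes of Rnf2 and Pcgf2 was not tested.

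**Figure D2:**
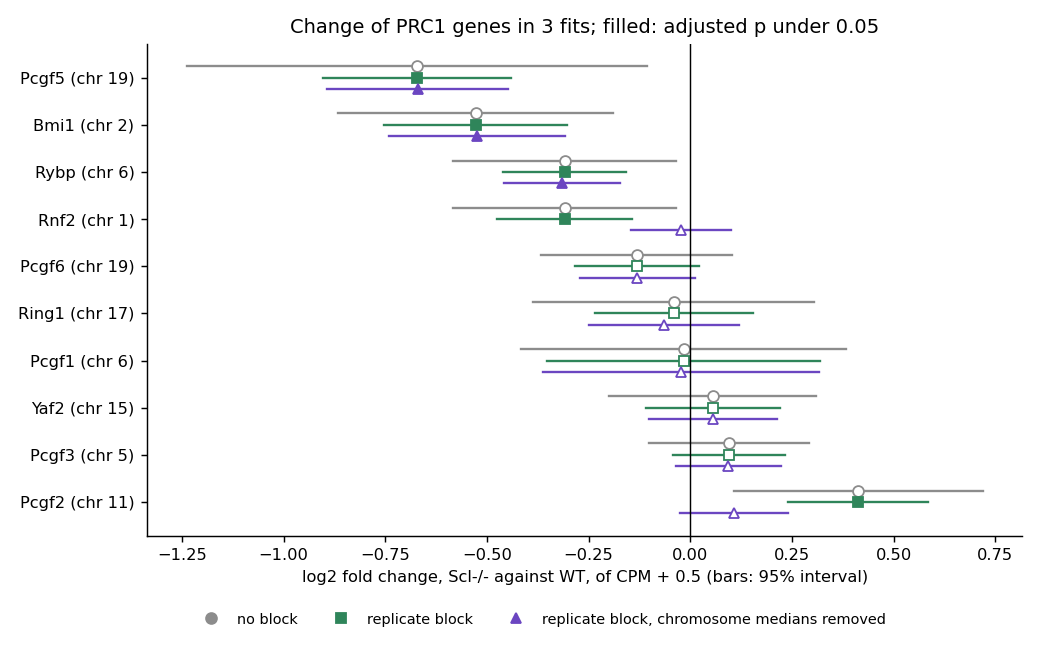
Log2 fold change of each PRC1 gene in Scl-/- against WT cells (horizontal axis, log2 of CPM + 0.5) in 3 fits, with 95% intervals, and filled symbols at an adjusted p under 0.05. Pcgf5, Bmi1 and Rybp stay on the left in all 3 fits, whereas Rnf2 and Pcgf2 move to -0.023 and 0.11 once chromosome medians are removed.

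Levels were compared between genes after division by exon length, on the scale of CPM per kb of exon. In WT cells Rybp was highest at 47.2 ± 3.28 (SD, n = 3), followed by Rnf2 at 39.9 ± 1.47 and Pcgf2 at 28.3 ± 2.62 CPM per kb. Pcgf5 at 23.6 ± 6.36 CPM per kb overlapped with its neighbours in this order, Pcgf2 and Yaf2. Yaf2 had 22.2 ± 1.08, Pcgf6 15.5 ± 0.642 and Pcgf3 10.2 ± 0.191 CPM per kb, and each of these 3 was separate from the gene after it.
Pcgf1, Ring1 and Bmi1 closed the order at 7.17 ± 1.29, 7.08 ± 0.931 and 6.86 ± 0.377 CPM per kb and could not be ranked, since their ranges overlapped. The highest and the lowest member differed by 6.89 times in WT cells. In Scl-/- cells the order began with Rybp (38.2 ± 4.77), Pcgf2 (37.9 ± 5.28) and Rnf2 (32.3 ± 4.51 CPM per kb), in which Pcgf2 overlapped with each of the others.
Bmi1 was last there too, at 4.75 ± 0.766 CPM per kb, and was separate from Ring1 above it. The order depended on the length used. With the longest transcript in place of all exons, Pcgf2 was second in WT cells at 41.6 CPM per kb, above Rnf2 and overlapping with both Rybp and Rnf2, Pcgf6 stood before Yaf2, and Pcgf1 was last in place of Bmi1. In Scl-/- cells Pcgf2 was then above Rybp, at 55.6 against 38.2 CPM per kb. The exons of Pcgf5 in the mm9 annotation add up to 1719 bases and lack its RefSeq promoter, so its level per kb rests on an incomplete gene model.

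**Figure D3:**
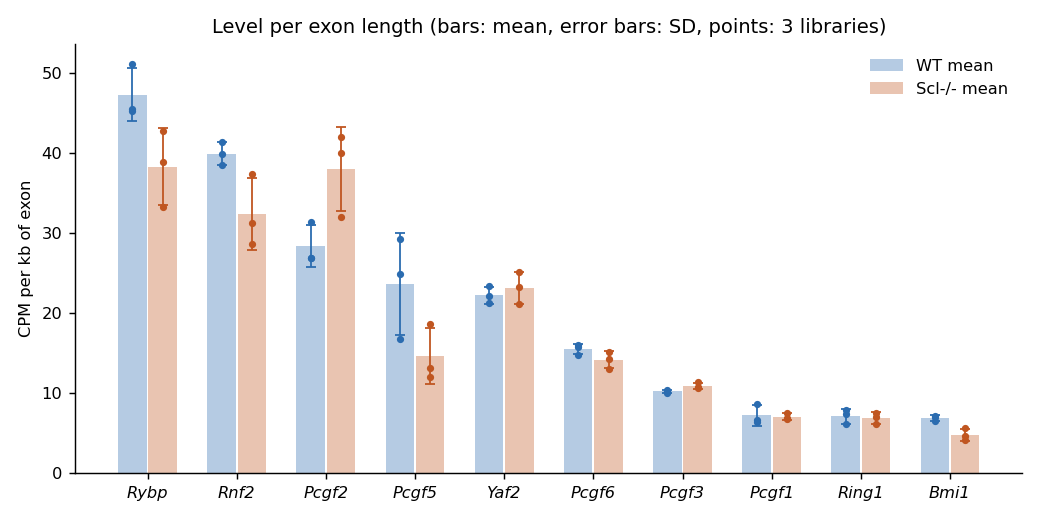
Level of each PRC1 gene in CPM per kb of exon (vertical axis, from 0), ordered by the WT mean. Bars are means, error bars are SD and points are the 3 libraries of each group. On this length Rybp and Rnf2 lead in WT cells, and Pcgf2 stands beside Rybp in Scl-/- cells.

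The relative make-up of the complex was compared within each library by 10 measures, which do not depend on how libraries were scaled. An exact two-sided permutation test with 3 libraries against 3 cannot go below p = 0.1, and with pairs below 0.25, so none could pass. The Pcgf2 to Bmi1 ratio changed most. As log2 of CPM per kb, this ratio was 1.93, 1.91 and 2.29 in WT libraries and 2.52, 3.11 and 3.37 in Scl-/- libraries, without overlap. It was 1.94 times as high in Scl-/- cells as in WT cells by geometric means, a difference of 0.95 on the log2 scale (exact permutation p = 0.1, adjusted over the 10 measures p = 0.2). With chromosome medians removed the log2 difference was 0.64.
The Rybp to Yaf2 ratio per kb was 2.13 in WT and 1.65 in Scl-/- cells as geometric means. It was lower in every pair, by log2 differences of -0.25, -0.33 and -0.52, although the groups overlapped (exact permutation p = 0.2, adjusted p = 0.286). The Ring1 to Rnf2 ratio per kb was 0.177 in WT and 0.213 in Scl-/- cells, with separate groups (exact permutation p = 0.1, adjusted p = 0.2). This difference of 0.27 on the log2 scale turned to -0.044 when chromosome medians were removed.

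Within the PCGF genes, summed at 91.6 ± 6.98 CPM per kb (SD, n = 3) in WT and 89.3 ± 0.652 in Scl-/- cells (exact permutation p = 0.5), the total differed by less than the spread of the WT libraries, and the shares of single genes are given as values, since none could pass. Pcgf2 made up 28.1%, 32.2% and 32.7% of the sum in WT libraries and 36.0%, 44.5% and 46.9% in Scl-/- libraries. These groups were separate (exact permutation p = 0.1, adjusted p = 0.2), and the difference of the means was 11.5 percentage points, or 6.55 with chromosome medians removed.
Pcgf5 made up 30.7%, 19.98% and 25.9% in WT and 21.0%, 13.4% and 14.7% in Scl-/- cells. The means differed by -9.17 percentage points and the share was lower in all 3 pairs, while the second WT library was below the first Scl-/- library (exact permutation p = 0.2, adjusted p = 0.286). Without division by length this difference was -4.80 percentage points. All shares depend on the annotated exon lengths, and the 1719 bases of Pcgf5 come from the incomplete gene model named above. In CPM without lengths, the WT mean was 40.5 for Pcgf5 and 97.1 for Pcgf3. Bmi1 made up 7.36%, 8.54% and 6.69% in WT and 6.29%, 5.16% and 4.53% in Scl-/- cells, again without overlap (exact permutation p = 0.1, adjusted p = 0.2).
Pcgf2 and Bmi1 together, the PCGF genes of canonical PRC1, made up 38.5% ± 2.70 (SD, n = 3) in WT and 47.8% ± 4.81 in Scl-/- cells (exact permutation p = 0.1, adjusted p = 0.2), a difference of 9.28 points, or 4.84 with chromosome medians removed. Pcgf6 had 16.99% ± 1.95 in WT and 15.8% ± 1.17 in Scl-/- cells (SD, n = 3), and Pcgf3 had 11.2% ± 1.05 and 12.2% ± 0.401. Pcgf1 had 7.83% ± 1.19 and 7.87% ± 0.530. The groups overlapped for these 3 shares (exact permutation p = 0.5, 0.3 and 1, adjusted p = 0.556, 0.375 and 1). Within pairs the Pcgf6 share was lower in all 3, by -0.34, -2.32 and -0.82 percentage points, and the Pcgf3 share higher in all 3, by 1.36, 0.26 and 1.44 points, whereas Pcgf1 differed in sign (exact sign-flip permutation p = 0.25, 0.25 and 1, where 0.25 is the smallest possible).

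**Figure D4:**
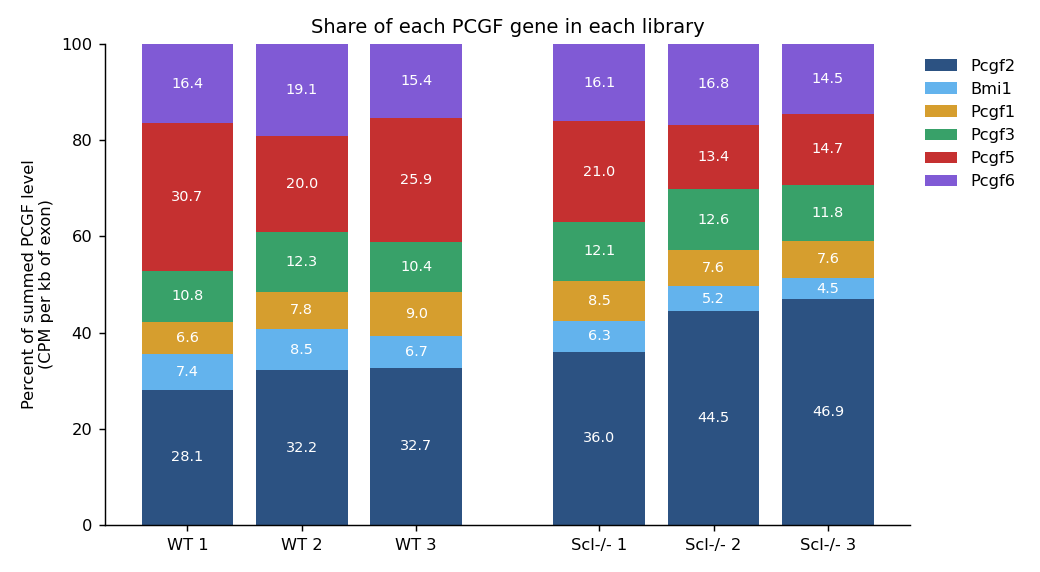
Share of each PCGF gene in the summed PCGF level of each library, in percent of CPM per kb of exon (vertical axis, 0 to 100). Pcgf2 takes 28.1% to 32.7% in WT and 36.0% to 46.9% in Scl-/- libraries, and Pcgf5 takes a smaller part in each Scl-/- library than in the WT library of the same number. The shares depend on the annotated exon lengths, and the gene model of Pcgf5 is incomplete.

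The rest of the pathway was described by a list of 36 further PRC1 genes. All 36 were tested and none was called without the block, where 1 had an unadjusted p under 0.05, against 2474 of all 13991 genes. With the block 3 were lower and 3 higher in Scl-/- cells. That is 6 of 36, against 5 of 10 members and 24.2% of all genes. The ranges of the 2 groups overlapped for each of these 6 genes. Of the 10 genes specific to canonical complexes, 2 fell and 1 rose. Cbx6, which encodes a CBX reader, went from 58.8 ± 16.6 CPM (SD, n = 3) to 45.3 ± 13.3 CPM (log2 difference -0.38, limma adjusted p = 0.00753 with the block). Phc3, which encodes a polyhomeotic protein, went from 28.0 ± 6.82 to 22.7 ± 4.47 CPM (SD, n = 3; log2 difference -0.29, limma adjusted p = 0.0441 with the block). Cbx2, another CBX gene, went from 80.0 ± 10.5 to 107 ± 19.9 CPM (SD, n = 3; log2 difference 0.41, limma adjusted p = 0.00378 with the block). The largest difference of the canonical genes was that of Cbx7, at -0.61, which did not pass (limma adjusted p = 0.0559 with the block). The pairs of Cbx7 differed in sign, with log2 differences of -0.93, -0.95 and 0.057.

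Of the 5 partners of PCGF1, Bcorl1 fell (log2 difference -0.26, limma adjusted p = 0.0328 with the block) and Skp1a rose (0.22, adjusted p = 0.0381), and Kdm2b, Bcor and Usp7 were not called. Of the 7 partners of PCGF3 and PCGF5, Dcaf7 rose (log2 difference 0.32, limma adjusted p = 0.0376 with the block), and the lowest was Fbrsl1 at -0.079 (adjusted p = 0.467). None of the 9 partners of PCGF6 was called, with log2 differences from -0.17 for Mga to 0.12 for Hdac2. None of the 5 genes of the opposing H2A deubiquitinases was called, with log2 differences from -0.14 for Asxl2 to 0.16 for Usp16. The 3 genes that rose, Cbx2, Skp1a and Dcaf7, all lie on chromosome 11. With chromosome medians removed and the block kept, none of them was called and their log2 differences were 0.10, -0.087 and 0.015, whereas Cbx6, Phc3 and Bcorl1 were called again (limma adjusted p = 0.008015, 0.0462 and 0.0336). All higher calls among these genes and the members were thus genes of chromosome 11. With the block, 623 of the 1211 tested genes of chromosome 11 were called higher, against 1685 of 13991 over all genes.

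**Figure D5:**
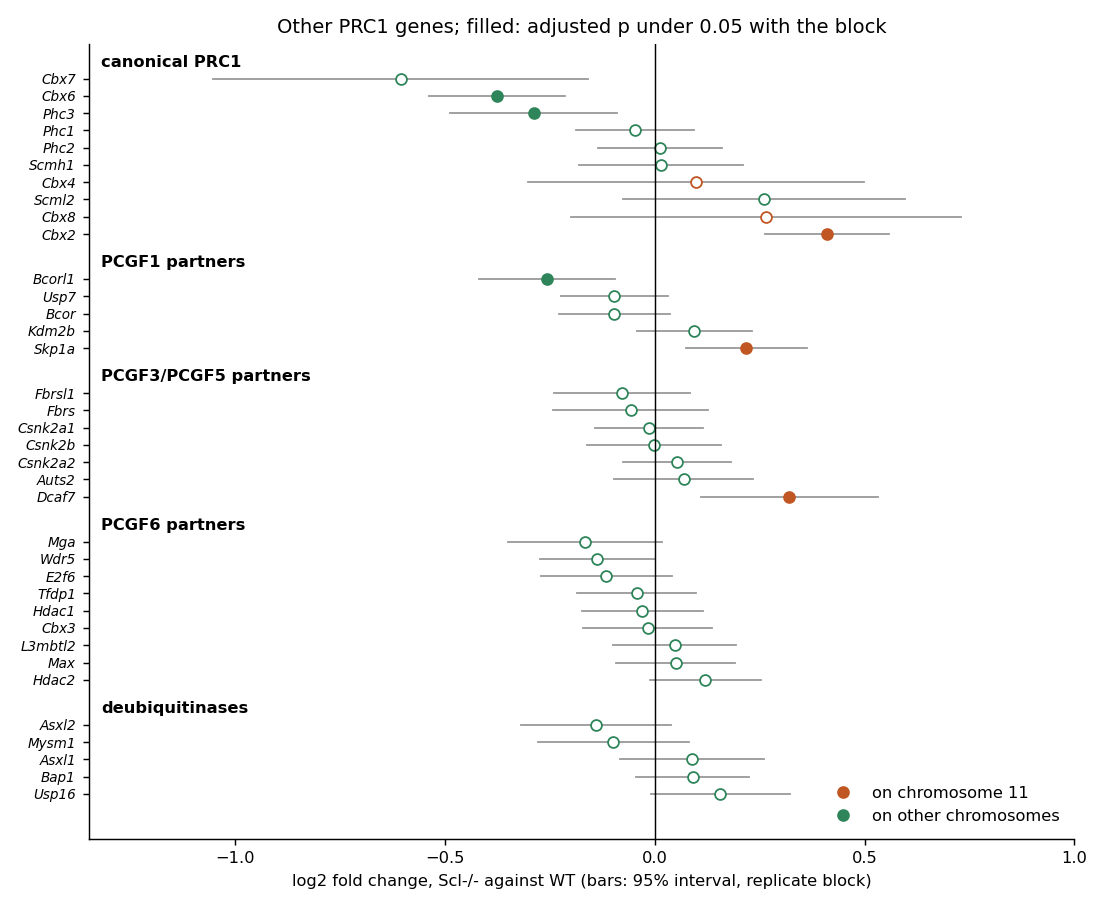
Log2 fold change of 36 further PRC1 genes in Scl-/- against WT cells (horizontal axis), grouped by complex, with 95% intervals from the paired fit and filled points at an adjusted p under 0.05. The 3 filled points on the right are orange, for genes of chromosome 11, and the 3 filled points on the left are Cbx6, Phc3 and Bcorl1.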

How the data were processed

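The 6 RNA-seq libraries of FLK1+ cells, 3 a genotype, were grouped by their genotype labels. The authors aligned reads to mm9 with TopHat2 2.0.8b, removed duplicate read pairs, filtered by mapping quality with SAMtools 0.1.19, normalized with edgeR's TMM method and deposited CPM values. The counting tool, gene annotation and strandedness are not given in the sources used here. Removal of duplicates can lower the values of highly expressed genes. All CPM values were whole multiples of a step per library (within 0.05 of a read), from which reads were worked out for depth only, and a floor of 3 reads equals 0.0615 to 0.0784 CPM. Reads lost as duplicates are not counted, and the counting errors given cover counting only.

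Genes reaching 0.5 CPM in 3 or more libraries (13991 of 14005, all 10 members included) were tested with limma 3.58.1 in R 4.3.3 (eBayes with intensity trend) on log2(CPM + 0.5), which understates changes of low genes, with Benjamini-Hochberg adjustment over all genes and a threshold of 0.05. Same-numbered libraries were taken, from their replicate numbers, to come from the same independent differentiation. Deviations of same-numbered libraries from group means correlated across genes at 0.587, 0.756 and 0.748, against -0.621 to -0.0996 for other combinations. The replicate block is therefore given beside the fit without it. Exon lengths and positions come from the GENCODE annotation of mm9, and no member shares exon bases with another annotated gene. Make-up measures used SciPy 1.17.1 with exact permutation, with Benjamini-Hochberg adjustment over 10 measures. Named genes are all members, other PRC1 genes that were called or were lowest or highest in their role, and the 3 genes most like Rybp and Pcgf5. The members and lists were chosen with earlier results of these data known. Alternatives were other pseudocounts, filters, scaling and lengths, no trend, the block, chromosome medians removed, and libraries left out.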

Additional observations from a re-analysis of the deposited data

How the results depend on the processing

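A pseudocount of 0.1 or 1, a filter at a mean of 2 CPM or none, median-ratio rescaling, no intensity trend, chromosome medians removed and each library left out all gave 0 called members and 0 called genes of the other PRC1 list without the block. The replicate block raised the calls to 5 members, 6 other PRC1 genes and 3385 genes in all, against 333 without it. With the block and a minimum log2 difference of 0.48 these were 2 members and 1768 genes, and with the block and chromosome medians removed they were 3, 3 and 2641. Leaving out each library without the block gave 34 to 384 called genes, the fewest without WT replicate 1. Leaving out both libraries of a number with the block, an alternative chosen after seeing the data, gave 1 to 5 members, 1 to 5 other PRC1 genes and 1194 to 3626 genes in all (1564 without replicate 3), the fewest without replicate 2. The signs of the differences of Pcgf5, Bmi1, Rybp, Rnf2, Pcgf2, Pcgf3 and Pcgf6 held in every setting run. For Rnf2 with chromosome medians removed, however, the log2 difference of -0.023 was smaller than its SE of 0.084. When single libraries were left out, the log2 difference ran from -0.095 to 0.12 for Pcgf1 (-0.14 to 0.14 for left-out pairs), from -0.15 to 0.046 for Ring1 and from -0.0034 to 0.12 for Yaf2. The Ring1 to Rnf2 log2 ratio changed sign with chromosome medians removed, to -0.044. The Pcgf1 share changed sign with longest-transcript lengths (-0.16 percentage points), without lengths (-0.089) and across left-out libraries (-0.56 to 0.64). The Pcgf6 share changed sign with chromosome medians removed (0.18). A paired sign-flip test of the make-up measures cannot give a p under 0.25. With 3 libraries a group, the make-up measures cannot pass any threshold under 0.1, and the 218 to 319 reads of Pcgf1 limit what its interval can show.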

Other observations

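The genes whose log2(CPM + 0.5) followed Rybp most closely over the 6 libraries were Nup62cl (Pearson's r = 0.999, n = 6), Lyn (0.997) and AY074887 (0.989). Those closest to Pcgf5 were Gpr39 (Pearson's r = 0.997, n = 6), Atp9b (0.996) and Cul4a (0.995). The points share 2 groups and 3 differentiations and the genes were the closest of 13991, so these values are a description only.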
